A study of Schizosaccharomyces pombe with 16 samples.

Results

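The comparison described here is that of polysome-bound mRNA in wild-type (WT) fission yeast (Schizosaccharomyces pombe) at 6 h and at 0 h. Its members are the 4 WT polysome libraries, 2 replicates at each time, out of 16 libraries in the series, and all genes of the count table were followed. The study grew WT cells (972 h-) and eIF2α.S52A cells (eIF2alfa.S52A:Ura4 ura4-D18 h-) in rich YES medium at 30°C and took total mRNA and polysome fractions of each. Samples at 0 h were in exponential growth, for which the paper's RNA methods give an OD550 of 0.5 to 1. The paper places the 6 h samples after 6 h of exponential growth, and elsewhere describes them as entering stationary phase. The S52A strain carries alanine in place of the serine of eIF2α that eIF2 kinases phosphorylate, and WT cells carry the unmutated gene. The 2 replicates of a group come from experiments A and B in the labels. The p-values rest on the spread between replicates, estimated for each gene over all 8 groups. Those of the WT polysome change, and their standard errors, thus also carry the spread of S52A and total mRNA replicates. The WT polysome libraries held 13049505 and 15093205 counts at 6 h, against 12303596 and 20522997 counts at 0 h. Of 7014 genes in the table, 6170 had enough counts to be tested. Levels are given as CPM (counts scaled to library size) after TMM scaling, replicate 1 before replicate 2.

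Polysomes are mRNAs loaded with several ribosomes, separated from lighter particles on a sucrose gradient, so an mRNA's share of a polysome library reflects both how much of it the cell holds and how much of it is being translated. As a fission yeast culture uses up its nutrients, growth slows, TOR and protein kinase A signalling decline and the stress-activated kinase Sty1 with its transcription factor Atf1 switches on a common set of stress genes. Ribosome production is the costliest task of a growing yeast cell and is regulated with growth rate. In polysome and total RNA alike, fewer cells of a kind and less RNA per cell cannot be told apart, and a change is relative to the other genes of the library.

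Polysome-bound mRNA changed at many genes in both directions. By edgeR's quasi-likelihood test with Benjamini-Hochberg adjustment over all 6170 genes, which gave every adjusted p printed here unless another tool is named, 529 genes (8.57% of those tested) rose and 549 (8.9%) fell at an adjusted p under 0.05. Rises reached further than falls, since 189 of the 529 were at least 4-fold (2 on the log2 scale) and 77 of the 549 were. The median log2 fold change was 1.43 among the rises and -1.25 among the falls, and -0.01 over all genes. Both 6 h libraries stood above both 0 h libraries at every one of the 529 rises and below them at every one of the 549 falls. Over all genes tested, 28.1% had both 6 h libraries on top and 30.1% had both below. The 529 risen genes took 12.5% and 10.9% at 6 h, against 1.97% and 1.91% at 0 h, of all raw counts, without TMM scaling. The 549 fallen genes took 33.9% and 30.9% at 6 h, against 54.3% and 55.4% at 0 h. Coding genes made up 475 of the rises and 441 of the falls.

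**Figure D1:**
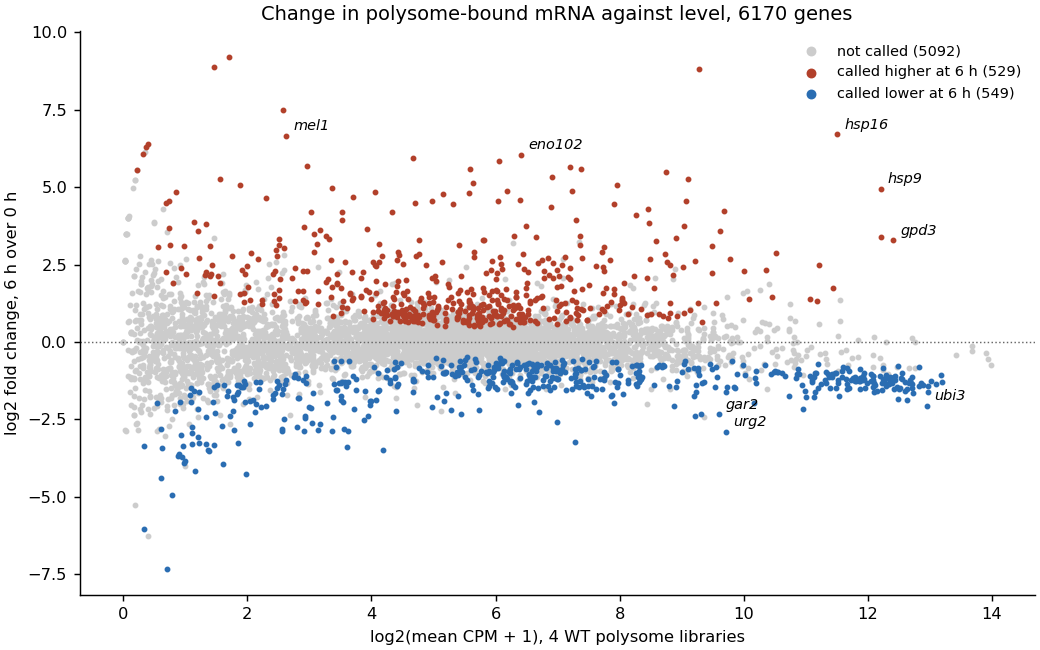
Each point is 1 of 6170 genes, with log2(mean CPM + 1) over the 4 WT polysome libraries on the x axis and the log2 fold change, 6 h over 0 h, on the y axis. Called rises (529) spread up to a log2 fold change of 9.21, and the most abundant called genes, ubi3 among them, lie below 0.

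The number of calls depended on the model and on single libraries. With the experiment as a block, 834 genes rose and 857 fell, and all 1078 genes of the unblocked fit were among them. Scaled by library size alone, without TMM, the median log2 fold change of all genes moved to 0.50, and the split became 1840 rises and 213 falls. Without 0 h replicate 1, 0 h replicate 2, 6 h replicate 1 or 6 h replicate 2 in turn, 245, 412, 525 or 281 genes were called. All further values are on the TMM scale unless said otherwise.

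The largest rises on polysomes included small stress proteins. hsp16, a small heat shock protein that holds unfolded proteins in solution, had 6744 and 4719 CPM at 6 h, against 51.4 and 57.3 CPM at 0 h (log2 fold change 6.72 ± 1.43, adjusted p = 0.0106, with ± for the standard error throughout). hsp9, a small protein of the stress response, had 6594 and 11709 CPM at 6 h, against 78.1 and 512 CPM at 0 h (log2 fold change 4.95 ± 0.983, adjusted p = 0.00803). hsp3101, a glyoxalase of the DJ-1 family that detoxifies methylglyoxal, had 258 and 319.6 CPM at 6 h, against 9.73 and 9.79 CPM at 0 h (log2 fold change 4.89 ± 1.07, adjusted p = 0.0115). The 6 h and 0 h libraries of these 3 genes did not overlap, which held for every called gene. Their lowest 6 h value was far above the highest 0 h value in each. hsp3105, a relative of hsp3101, had 212 and 109 counts at 6 h, against 4 and 1 at 0 h, a ratio of 53.0 per scaled count (exact 95% interval 22.5 to 164, counting error only, adjusted p = 0.027). Most general chaperones did not pass. Of 27 heat shock proteins and chaperones tested of 30 listed, 4 rose, 1 fell and 22 did not pass, with a median of 0.45. The shares that rose and fell were 14.8% and 3.70%, beside 8.57% and 8.9% over all genes. Taken by experiment as differences of log2(CPM + 1), the list's median was 0.23 between the replicate 1 libraries and 0.92 between the replicate 2 libraries, and 10 rose by library size alone (median 0.97). sks2, an Hsp70 that sits on ribosomes and folds nascent chains, was the one that fell, with 2305 and 1923 CPM at 6 h, against 5300.3 and 4503 CPM at 0 h (log2 fold change -1.21 ± 0.258, adjusted p = 0.0105). ssa1, a cytosolic Hsp70, had 74.7 and 511 CPM at 6 h, against 40.6 and 21.9 CPM at 0 h, and hsp104, a disaggregase, had 157 and 172 CPM at 6 h, against 68.4 and 26.4 CPM at 0 h. Neither passed (adjusted p = 0.104 and 0.202), though hsp104 did with the experiment as a block (adjusted p = 0.0429), and the 6 h replicates of ssa1 differed by more than its lower 6 h value differed from 0 h. With 1 library left out at a time (the omission and its adjusted p in brackets), calls were lost for hsp16 (0 h replicate 1 or 2, up to 0.0785), hsp9 (0 h replicate 1, 0.0525), hsp3101 (0 h replicate 1 or 2, up to 0.0785), hsp3105 (any of the 4, 0.0609 to 0.167) and sks2 (6 h replicate 2 or 0 h replicate 1, up to 0.0876). The 4 rises of this list came to 3 without 6 h replicate 1, 3 without 6 h replicate 2, 0 without 0 h replicate 1 and 1 without 0 h replicate 2, and to 6 with the experiment as a block.

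Genes of the core stress response, which fission yeast induces under most kinds of stress, moved mostly one way. Of 24 tested, 13 rose, none fell and 11 did not pass, and the median was 1.86, beside -0.01 over all genes. In all, 18 log2 fold changes were above 0 and 6 below, the lowest at -1.33. With the experiment as a block 16 rose and 2 fell. The share that rose was 54.2%, beside 8.57% over all genes, and 17 rose by library size alone (median 2.37). ctt1, the cytoplasmic catalase that breaks down hydrogen peroxide, had 361 and 374 CPM at 6 h, against 57.3 and 39.9 CPM at 0 h (log2 fold change 2.92 ± 0.543, adjusted p = 0.00622). rds1, a stress-induced gene, had 812 and 935 CPM at 6 h, against 109 and 62.0 CPM at 0 h (log2 fold change 3.36 ± 0.638, adjusted p = 0.00672). atf1, which encodes the transcription factor of the pathway, had 94.4 and 103 CPM at 6 h, against 38.8 and 30.2 CPM at 0 h (log2 fold change 1.52 ± 0.352, adjusted p = 0.0143). In all 3 genes both 6 h libraries exceeded both 0 h libraries by more than the replicates differed. Among 21 antioxidant enzymes, 6 rose (28.6%, beside 8.57% over all genes) and none fell, with a median of 0.54. This list shares ctt1, gpx1, srx1 and gst2 with the stress list. With the experiment as a block 8 rose and 1 fell, and by library size alone 14 rose (median 1.04). The 6 came to 2 without 6 h replicate 1, 2 without 6 h replicate 2, 1 without 0 h replicate 1 and 1 without 0 h replicate 2, and 1 gene fell without 6 h replicate 1. grx1, a glutaredoxin that reduces disulfides, had 4441 and 3627 CPM at 6 h, against 822 and 629 CPM at 0 h (log2 fold change 2.47 ± 0.660, adjusted p = 0.0245), and gpx1, a glutathione peroxidase, had 1415 and 1968 CPM at 6 h, against 314 and 381 CPM at 0 h (log2 fold change 2.28 ± 0.459, adjusted p = 0.00834). sod1, the cytosolic superoxide dismutase, lay on the other side of 0 with 1007 and 372 CPM at 6 h, against 2243 and 1703 CPM at 0 h, a difference that did not pass (adjusted p = 0.0725, or 0.0117 with the block). ecl1, an extender of chronological lifespan, had 115 and 86.0 CPM at 6 h, against 9.20 and 11.2 CPM at 0 h (log2 fold change 3.29 ± 1.04, adjusted p = 0.047). Calls were lost, with 1 library left out at a time, for ctt1 (0 h replicate 2, 0.0513), rds1 (0 h replicate 2, 0.055), atf1 (6 h replicate 2 or 0 h replicate 1 or 2, up to 0.0968), grx1 (any of the 4, 0.0766 to 0.136), gpx1 (6 h replicate 2 or 0 h replicate 1, up to 0.0672) and ecl1 (any of the 4, 0.106 to 0.182). The 13 rises of the stress list came to 8 without 6 h replicate 1, 5 without 6 h replicate 2, 3 without 0 h replicate 1 and 3 without 0 h replicate 2.

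**Figure D2:**
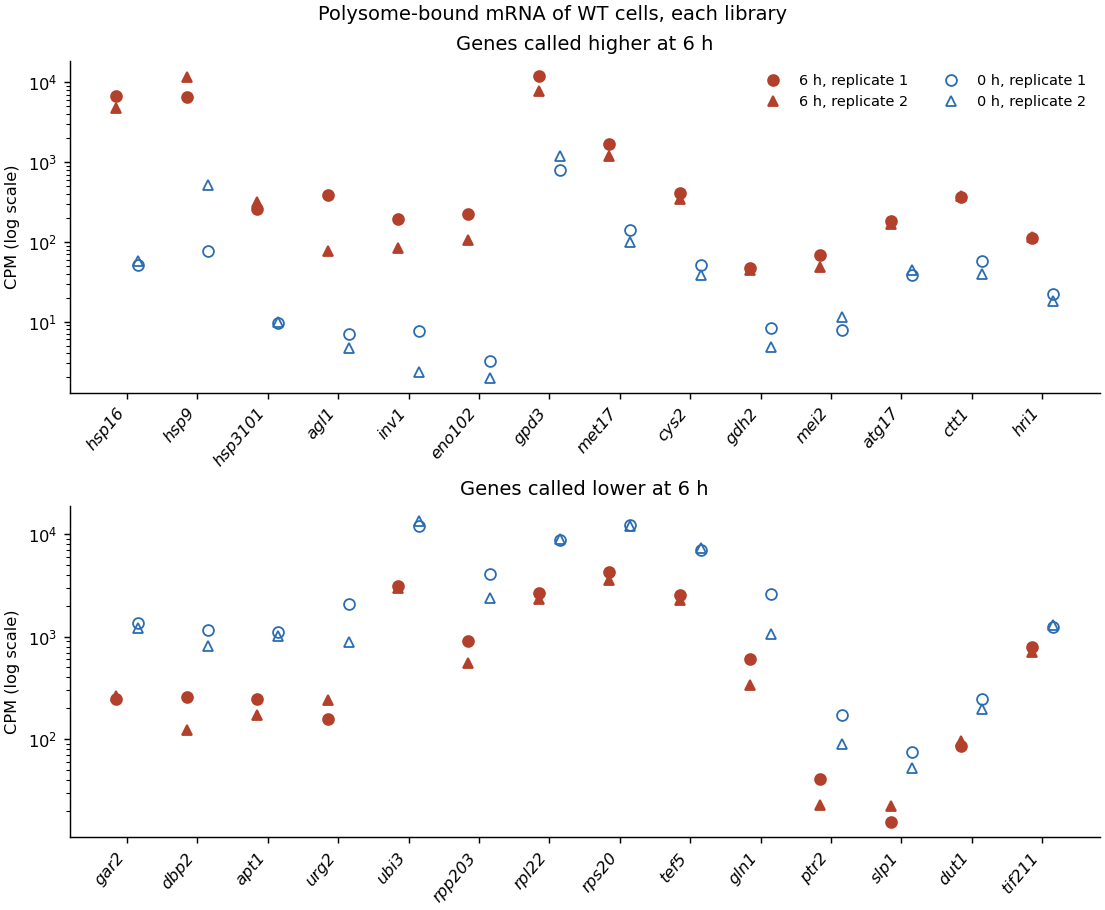
CPM on a log scale for 14 genes called higher (upper panel) and 14 called lower (lower panel) at 6 h, with filled symbols for the 6 h libraries and open symbols for the 0 h libraries, circles for replicate 1 and triangles for replicate 2. In every gene shown the 6 h and 0 h symbols are apart, as they are in all called genes. agl1, hsp9 and gln1 are among the genes with wide replicates.

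Carbon metabolism held large rises at single genes. inv1, the secreted invertase that splits sucrose, had 193 and 85.1 CPM at 6 h, against 7.60 and 2.36 CPM at 0 h (log2 fold change 4.88 ± 1.18, adjusted p = 0.017). agl1, the secreted maltase, had 387 and 76.3 CPM at 6 h, against 6.93 and 4.71 CPM at 0 h (log2 fold change 5.33 ± 1.20, adjusted p = 0.0128), with the 2 replicates at 6 h further apart than those at 0 h. mel1, a melibiase that splits alpha-galactosides, had 143 and 110 counts at 6 h, against 0 and 2 at 0 h, a ratio of 104 (exact 95% interval 28.6 to 868, adjusted p = 0.00312). fbp1, the gluconeogenic fructose-1,6-bisphosphatase that glucose represses, had 8.21 and 9.70 CPM at 6 h, against 0.666 and 1.40 CPM at 0 h (log2 fold change 3.03 ± 0.436, adjusted p = 0.00238). Of 15 glucose-repressed genes tested of 16 listed, 4 rose (26.7%, beside 8.57% over all genes) and none fell (median 1.35). The 4 were inv1, agl1, fbp1 and dak2, which is also counted with glycerol metabolism, whereas mel1 is outside the list. With the experiment as a block 8 rose and 1 fell, and 9 rose by library size alone (median 1.86). Glycolysis showed 3 rises (17.6%) and no fall among 17 genes, with a median of -0.12, or 0.41 when scaled by library size alone. The 3 encode enzymes that have other genes in the list, none of which passed. eno102, an enolase, had 227 and 105 CPM at 6 h, against 3.20 and 1.99 CPM at 0 h (log2 fold change 6.05 ± 0.869, adjusted p = 0.00238), whereas eno101 had 13259.8 and 12346 CPM at 6 h, against 23942 and 13233 CPM at 0 h (adjusted p = 0.495). gpd3, a glyceraldehyde-3-phosphate dehydrogenase, had 11975 and 7695 CPM at 6 h, against 798 and 1204 CPM at 0 h (log2 fold change 3.30 ± 0.734, adjusted p = 0.0124), whereas tdh1 had 8679 and 16454 CPM at 6 h, against 13924 and 13426 CPM at 0 h (adjusted p = 0.894). pdc201, a pyruvate decarboxylase, had 33.5 and 20.0 CPM at 6 h, against 4.93 and 4.56 CPM at 0 h (log2 fold change 2.49 ± 0.407, adjusted p = 0.00377). Reads of such gene copies could be shared where their sequences are near identical. The difference between copies was not tested. With 1 library left out at a time, calls were lost for inv1 (6 h replicate 1 or 0 h replicate 1 or 2, up to 0.119), agl1 (6 h replicate 1 or 0 h replicate 1 or 2, up to 0.0898) and gpd3 (0 h replicate 1 or 2, up to 0.0911), whereas mel1, fbp1, eno102 and pdc201 kept the call in all 4 fits. The 4 rises among glucose-repressed genes came to 2 without 6 h replicate 1, 4 without 6 h replicate 2, 2 without 0 h replicate 1 and 2 without 0 h replicate 2.

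Enzymes of the tricarboxylic acid cycle and pyruvate dehydrogenase rose in part. Of 19 tested, 5 rose (26.3%, beside 8.57% over all genes) and none fell, with a median of 0.65. With the experiment as a block 10 rose, and 15 rose by library size alone (median 1.16). idh2, a subunit of NAD-dependent isocitrate dehydrogenase, had 365 and 342 CPM at 6 h, against 153 and 159 CPM at 0 h (log2 fold change 1.18 ± 0.331, adjusted p = 0.0296), and aco1, aconitase, had 734 and 644 CPM at 6 h, against 349 and 365 CPM at 0 h (log2 fold change 0.95 ± 0.188, adjusted p = 0.00803). mdh1, malate dehydrogenase, had 2062 and 1143 CPM at 6 h, against 641 and 374 CPM at 0 h, which did not pass (adjusted p = 0.0698, or 0.0108 with the block). Respiratory chain and ATP synthase subunits encoded in the nucleus had 2 rises among 36 tested and no fall, at a median of 0.37, with 3 rises under the block. The share that rose was 5.56%, beside 8.57% over all genes. By experiment the median was 0.59 between the replicate 1 libraries and 0.14 between the replicate 2 libraries, and 12 rose by library size alone (median 0.87). The 2 called were nde1, an external NADH dehydrogenase, with 175 and 159 CPM at 6 h, against 78.8 and 89.5 CPM at 0 h (log2 fold change 0.99 ± 0.244, adjusted p = 0.0179), and inh1, the inhibitor of ATP synthase, with 331 and 322 CPM at 6 h, against 117 and 152 CPM at 0 h (log2 fold change 1.28 ± 0.335, adjusted p = 0.0224). Among 11 genes of trehalose and glycerol metabolism tested of 13 listed, 2 rose (18.2%) and none fell (median 1.38). Under the block 6 rose, and 8 rose by library size alone (median 1.93). Of the 2, one was dak2, a dihydroxyacetone kinase used when glycerol is the carbon source, with 42.6 and 60.1 CPM at 6 h, against 8.66 and 14.4 CPM at 0 h (log2 fold change 2.14 ± 0.360, adjusted p = 0.00419). The other was tpp1, trehalose-6-phosphate phosphatase, with 217 and 239 CPM at 6 h, against 121 and 100.1 CPM at 0 h (log2 fold change 1.04 ± 0.307, adjusted p = 0.0361). tps1, the synthase that makes trehalose-6-phosphate, had 163 and 275 CPM at 6 h, against 52.4 and 52.3 CPM at 0 h, apart between the times but not past the test (adjusted p = 0.0861, or 0.0412 with the block). Among the called genes, omission of 1 library ended the call of idh2 (any of the 4, 0.0987 to 0.127), aco1 (0 h replicate 1, 0.062), nde1 (any of the 4, 0.0655 to 0.107), inh1 (any of the 4, 0.0669 to 0.135) and tpp1 (any of the 4, 0.0865 to 0.176), whereas dak2 kept the call in all 4 fits. The 5 rises of the cycle came to 1 without 6 h replicate 1, 1 without 6 h replicate 2, 0 without 0 h replicate 1 and 1 without 0 h replicate 2. The 2 of the respiratory chain came to 0 in each of these fits, and the 2 of trehalose and glycerol metabolism came to 1 in each.

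Many autophagy genes rose and none fell. Of 27 autophagy genes tested of 30 listed, 13 rose (48.1%, beside 8.57% over all genes), none fell and 14 did not pass, at a median of 0.84, and 21 rose by library size alone (median 1.35). atg17, a scaffold of the Atg1 kinase complex, had 184 and 169.6 CPM at 6 h, against 38.6 and 45.0 CPM at 0 h (log2 fold change 2.08 ± 0.345, adjusted p = 0.00399). atg8, the ubiquitin-like protein attached to autophagosome membranes, had 100.1 and 132 CPM at 6 h, against 45.6 and 40.3 CPM at 0 h (log2 fold change 1.44 ± 0.315, adjusted p = 0.0116). atg2, a lipid transfer protein of the growing membrane, had 14.6 and 19.6 CPM at 6 h, against 6.66 and 6.70 CPM at 0 h (log2 fold change 1.36 ± 0.244, adjusted p = 0.00542). The 2 times did not overlap in any of these genes, as in every called gene. atg1, the kinase itself, had 55.7 and 53.0 CPM at 6 h, against 31.3 and 26.1 CPM at 0 h (log2 fold change 0.93 ± 0.214, adjusted p = 0.0142). Of 5 vacuolar proteases tested of 6 listed, 2 rose (40%) and none fell (median 1.07). Under the block 4 rose, and 5 rose by library size alone (median 1.57). cpy1, carboxypeptidase Y, had 1905 and 1239 CPM at 6 h, against 655 and 547 CPM at 0 h (log2 fold change 1.39 ± 0.256, adjusted p = 0.00616), and psp3, a serine protease, had 508 and 371 CPM at 6 h, against 229 and 189 CPM at 0 h (log2 fold change 1.07 ± 0.309, adjusted p = 0.0335). isp6, another vacuolar serine protease, had 519.9 and 396 CPM at 6 h, against 152 and 121 CPM at 0 h and missed the threshold narrowly (adjusted p = 0.0503, or 0.00603 with the block). The 14 subunits of the vacuolar proton ATPase held no call, with log2 fold changes between -0.42 and 0.36. With 1 library left out at a time, calls were lost for atg8 (6 h replicate 2 or 0 h replicate 1 or 2, up to 0.0782), atg1 (any of the 4, 0.0551 to 0.0979) and psp3 (any of the 4, 0.0681 to 0.169), whereas atg17, atg2 and cpy1 kept the call in all 4 fits. The 13 autophagy rises came to 6 without 6 h replicate 1, 4 without 6 h replicate 2, 2 without 0 h replicate 1 and 4 without 0 h replicate 2, and the 2 among vacuolar proteases came to 1 in each omission.

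Of 15 genes of sulfur assimilation and methionine tested of 17 listed, 4 rose (26.7%), 1 fell (6.67%) and 10 did not pass. Over all genes 8.57% rose and 8.9% fell. The list's median was -0.04, or 0.46 when scaled by library size alone. The 4 that rose were sua1, met17, cys2 and cys11. sua1, the ATP sulfurylase that activates sulfate, had 4816 and 3721 CPM at 6 h, against 1351 and 1179 CPM at 0 h (log2 fold change 1.75 ± 0.231, adjusted p = 0.00156). met17, homocysteine synthase, had 1691 and 1201 CPM at 6 h, against 141 and 99.5 CPM at 0 h (log2 fold change 3.59 ± 0.466, adjusted p = 0.00141). cys2, homoserine acetyltransferase, had 413 and 349.8 CPM at 6 h, against 52.1 and 38.7 CPM at 0 h (log2 fold change 3.07 ± 0.347, adjusted p = 0.000888), and cys11, cysteine synthase, had 1351 and 1018 CPM at 6 h, against 268 and 241 CPM at 0 h (log2 fold change 2.22 ± 0.414, adjusted p = 0.00633). sul2, a predicted sulfate transporter outside the list, had 542 and 414 CPM at 6 h, against 15.3 and 13.2 CPM at 0 h (log2 fold change 5.07 ± 0.630, adjusted p = 0.00118), and hmt2, a mitochondrial sulfide-quinone oxidoreductase, had 3229 and 1935 CPM at 6 h, against 326 and 372 CPM at 0 h (log2 fold change 2.89 ± 0.397, adjusted p = 0.00195). Every 6 h value of these 6 genes lay above every 0 h value, as for every called rise. Their calls were held with any 1 of the 4 libraries left out. met14, adenylylsulfate kinase, the next enzyme of sulfate assimilation after sua1, was the one that fell, with 433 and 366 CPM at 6 h, against 801 and 878 CPM at 0 h (log2 fold change -1.07 ± 0.264, adjusted p = 0.0178), a call lost with any 1 of the 4 libraries left out and, with library size scaling, not made. Amino acid biosynthesis had 3 rises (5.66%) and 4 falls (7.55%) among 53 genes tested of 61 listed, beside 8.57% and 8.9% over all genes. The median was -0.13 (0.39 by library size alone). The block gave 5 rises and 8 falls, and library size scaling 13 rises and 2 falls. One of the 3 rises, gdh2, is the NAD-dependent glutamate dehydrogenase, which releases ammonium from glutamate and so does not act in synthesis, despite the list's name. gdh2 had 47.3 and 44.7 CPM at 6 h, against 8.26 and 4.78 CPM at 0 h (log2 fold change 2.85 ± 0.260, adjusted p = 0.000253). gln1, glutamine synthetase, which takes ammonium up into glutamine, had 604 and 334 CPM at 6 h, against 2593 and 1064 CPM at 0 h (log2 fold change -1.96 ± 0.486, adjusted p = 0.0182). shm1, a serine hydroxymethyltransferase, had 1105 and 908 CPM at 6 h, against 3474 and 2609 CPM at 0 h (log2 fold change -1.60 ± 0.293, adjusted p = 0.00598), and ser3, an enzyme of serine synthesis, had 727 and 538 CPM at 6 h, against 279 and 246 CPM at 0 h (log2 fold change 1.27 ± 0.372, adjusted p = 0.0357). Omission of 1 library ended the call of gln1 (6 h replicate 2 or 0 h replicate 1, up to 0.151), shm1 (6 h replicate 2, 0.0582) and ser3 (any of the 4, 0.0731 to 0.16), whereas gdh2 kept the call in all 4 fits. The 3 rises of this list came to 2 without 6 h replicate 1, 1 without 6 h replicate 2, 1 without 0 h replicate 1 and 1 without 0 h replicate 2, and the 4 falls came to 2 without 6 h replicate 1, 0 without 6 h replicate 2, 1 without 0 h replicate 1 and 3 without 0 h replicate 2.

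Genes of sexual differentiation, which fission yeast starts when nutrients run out and a partner is near, had about as many calls as all genes. Of 24 genes of mating and meiosis entry, 3 rose (12.5%, beside 8.57% over all genes) and 2 fell (8.33%, beside 8.9%), with a median of 0.28, and 7 rose and 6 fell under the block. mei2, the RNA-binding protein that starts meiosis, had 69.4 and 48.6 CPM at 6 h, against 7.86 and 11.5 CPM at 0 h (log2 fold change 2.59 ± 0.396, adjusted p = 0.00309). spk1, the MAP kinase of the pheromone pathway, had 71.6 and 43.7 CPM at 6 h, against 14.0 and 17.4 CPM at 0 h (log2 fold change 1.87 ± 0.297, adjusted p = 0.00351), and ste4, an adaptor of that pathway, had 98.1 and 88.8 CPM at 6 h, against 42.4 and 49.2 CPM at 0 h (log2 fold change 1.03 ± 0.221, adjusted p = 0.011). isp3, a spore coat protein, had 2.95 and 4.12 CPM at 6 h, against 13.5 and 8.98 CPM at 0 h (log2 fold change -1.65 ± 0.407, adjusted p = 0.0179). ste11, the transcription factor above many of these genes, had 25.0 and 23.4 CPM at 6 h, against 7.46 and 16.1 CPM at 0 h and did not pass (adjusted p = 0.11, or 0.0321 with the block). Outside the list, mug147, a protein found in this genus only, had 27.2 and 33.1 CPM at 6 h, against 0.533 and 1.40 CPM at 0 h (log2 fold change 4.85 ± 1.003, adjusted p = 0.00942). Both strains are of the h- mating type, whose cells express M-cell genes. The 5 M-cell genes took 0.00445% and 0.00466% at 6 h, against 0.00267% and 0.00305% at 0 h, of all raw counts, without TMM scaling. On the TMM scale their median log2 fold change was -0.03, with no call. The P-cell pheromone gene map2 had 0.893 and 0.558 CPM at 6 h, against 2.53 and 2.94 CPM at 0 h (log2 fold change -1.93 ± 0.437, adjusted p = 0.0131). Both P-cell genes together took 0.000460% and 0.000477% at 6 h, against 0.000431% and 0.000668% at 0 h, of raw counts. Their median log2 fold change on the TMM scale was -1.17. Calls lost with 1 library left out were those of ste4 (6 h replicate 1 or 0 h replicate 1, up to 0.0778), isp3 (6 h replicate 1 or 2 or 0 h replicate 1, up to 0.105), map2 (6 h replicate 2 or 0 h replicate 1 or 2, up to 0.109) and mug147 (0 h replicate 1 or 2, up to 0.0712), while mei2 and spk1 were held in all 4 fits. The 3 rises came to 2 without 6 h replicate 1, 3 without 6 h replicate 2, 2 without 0 h replicate 1 and 3 without 0 h replicate 2, and the 2 falls to 1 without 6 h replicate 1, 0 without 6 h replicate 2, 1 without 0 h replicate 1 and 2 without 0 h replicate 2.

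Among signalling genes, hri1, an eIF2α kinase, had 111 and 116 CPM at 6 h, against 22.1 and 18.0 CPM at 0 h (log2 fold change 2.51 ± 0.475, adjusted p = 0.00659). gcn2, the eIF2α kinase that senses uncharged tRNA, had 41.8 and 38.5 CPM at 6 h, against 26.4 and 20.3 CPM at 0 h (log2 fold change 0.79 ± 0.282, adjusted p = 0.0741, or 0.0306 with the experiment as a block). hri2, the remaining eIF2α kinase, had 14.3 and 25.8 CPM at 6 h, against 18.0 and 17.1 CPM at 0 h (adjusted p = 0.684), and its 6 h values lay on both sides of its 0 h values. fil1, a GATA-type transcription factor of amino acid genes, had 180.5 and 187 CPM at 6 h, against 159 and 113 CPM at 0 h (adjusted p = 0.272). tif211, which encodes eIF2α, fell, with 794 and 714 CPM at 6 h, against 1236 and 1291 CPM at 0 h (log2 fold change -0.74 ± 0.203, adjusted p = 0.027). Of 17 TOR signalling genes tested of 18 listed, 2 rose (11.8%, beside 8.57% over all genes) and none fell, at a median of 0.18, 5 rose under the block, and 12 rose by library size alone (median 0.69). toc1, a subunit of Tor2 complexes, had 92.6 and 114 CPM at 6 h, against 44.9 and 55.7 CPM at 0 h (log2 fold change 1.03 ± 0.169, adjusted p = 0.00377), and gtr2, a Rag-type GTPase, had 94.1 and 116 CPM at 6 h, against 66.5 and 66.4 CPM at 0 h (log2 fold change 0.66 ± 0.200, adjusted p = 0.0408). In the cAMP pathway 1 of 13 genes tested of 14 listed rose (7.69%) and none fell, at a median of 0.23, 3 rose under the block, and 6 rose by library size alone (median 0.74). The one called was pka1, the catalytic subunit of protein kinase A, with 89.4 and 92.6 CPM at 6 h, against 44.9 and 33.1 CPM at 0 h (log2 fold change 1.23 ± 0.335, adjusted p = 0.0272). Leaving out 1 library ended the call of hri1 (0 h replicate 2, 0.0517), tif211 (any of the 4, 0.0754 to 0.164), gtr2 (any of the 4, 0.0583 to 0.196) and pka1 (any of the 4, 0.0731 to 0.161), whereas toc1 kept the call in all 4 fits. Scaled by library size alone, tif211 no longer passed (adjusted p = 0.352), and fil1 and gcn2 did (0.0144 and 0.0052).

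**Figure D3:**
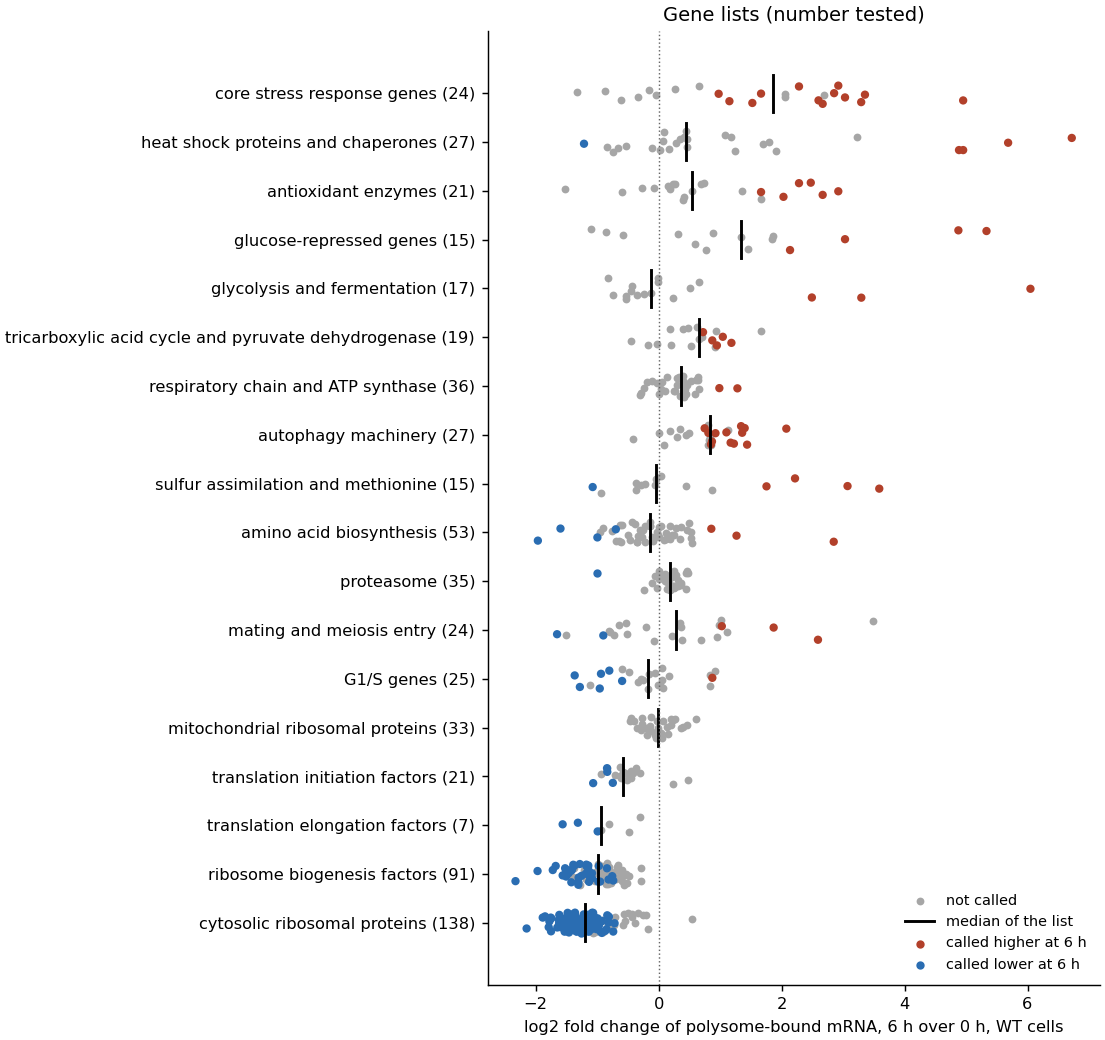
Each point is a gene of 1 of 18 gene lists, placed by its log2 fold change, 6 h over 0 h, in WT polysomes, with the number tested in brackets and a black bar at the list's median. Red points passed the test upward and blue points downward, and the list medians run from 1.86 for core stress response genes to -1.20 for cytosolic ribosomal proteins.

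Several of the steepest rises lay side by side in the genome, as read from gene order in the RefSeq annotation of ASM294v3. Of 473 risen coding genes placed there, 114 (24.1%) had a risen coding gene as direct neighbour, and of 440 fallen ones 86 (19.5%) had a fallen neighbour. Among 5007 coding genes tested 475 rose and 441 fell, beside 8.57% and 8.9% over all genes. With a neighbour on each side, some called genes would lie beside others in any gene order. That share was not worked out, and neighbourhood was not tested. There were 4 runs of at least 4 neighbouring rises and none of falls, and the longest run of falls held 3 genes. One run, of 5 genes on chromosome I, held SPAC869.09, pcm2, mel1, hry1 and sul2, with log2 fold changes between 2.78 and 7.50. hry1, a predicted HHE domain cation-binding protein, had 171 and 65 counts at 6 h, against 0 and 1 at 0 h, a ratio of 195 (exact 95% interval 34.7 to 7732, adjusted p = 0.0135). Another, of 5 genes on chromosome II, included eno102, SPBPB21E7.02c, SPBPB21E7.10 and SPBPB21E7.11. The third, of 4 genes on chromosome II, ran from SPBPB2B2.05 to SPBPB2B2.08. SPBPB2B2.08, a conserved fungal protein, had 1947 and 514 CPM at 6 h, against 1.47 and 3.75 CPM at 0 h (log2 fold change 8.81 ± 1.65, adjusted p = 0.00644), with the 6 h replicates well apart. Its neighbour SPBPB2B2.07c had 78 and 30 counts at 6 h and none in either 0 h library, at least 29.7-fold higher when 3 counts are set as the floor over the 0 h group (adjusted p = 0.039). SPBPB2B2.06c, a predicted phosphatase, had 114 and 35.0 CPM at 6 h, against 7.46 and 9.35 CPM at 0 h (log2 fold change 3.13 ± 0.529, adjusted p = 0.00419). The fourth run, of 5 genes on chromosome I, held mag1, a DNA repair glycosylase, and 4 genes named SPAPB24D3.03, SPAPB24D3.06c, SPAPB24D3.07c and SPAPB24D3.08c, with log2 fold changes between 1.01 and 2.68. Calls were lost without 1 library for hry1 (6 h replicate 1 or 0 h replicate 1 or 2, up to 0.0863), SPBPB2B2.08 (0 h replicate 1, 0.0621) and SPBPB2B2.07c (any of the 4, 0.0718 to 0.172), whereas mel1, sul2, eno102 and SPBPB2B2.06c kept the call in all 4 fits.

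Ribosomal protein genes were the largest group of falls among the lists. Of 138 cytosolic ribosomal protein genes, 116 fell, none rose and 22 did not pass, at a median of -1.20, beside -0.01 over all genes. The share that fell was 84.1%, beside 8.9% over all genes. Large subunit genes had 67 falls among 76 (median -1.22), small subunit genes 43 among 55 (median -1.15) and genes of the acidic stalk 6 among 7 (median -1.48). rpp203, an acidic stalk protein that contacts translation factors, had 914 and 553 CPM at 6 h, against 4099 and 2394 CPM at 0 h (log2 fold change -2.15 ± 0.377, adjusted p = 0.00509). rpl22, of the large subunit, had 2671 and 2321 CPM at 6 h, against 8885 and 9072 CPM at 0 h (log2 fold change -1.85 ± 0.252, adjusted p = 0.00195). rps20, of the small subunit, had 4286 and 3612 CPM at 6 h, against 12187 and 12051 CPM at 0 h (log2 fold change -1.62 ± 0.315, adjusted p = 0.00724). The 2 times did not overlap in these genes, as in every called gene, and for rpl22 and rps20 the replicates lay close together. rpp0, the base of the stalk, had 3242 and 2155 CPM at 6 h, against 11507 and 8419 CPM at 0 h (log2 fold change -1.88 ± 0.447, adjusted p = 0.0157). rps23, a protein of the decoding site, had 5724 and 4043 CPM at 6 h, against 13461 and 11603 CPM at 0 h (log2 fold change -1.36 ± 0.284, adjusted p = 0.00984), and rpl2802 had 4943 and 3814 CPM at 6 h, against 11549.8 and 11657 CPM at 0 h (log2 fold change -1.41 ± 0.266, adjusted p = 0.00659). ubi3, which encodes ubiquitin fused to a ribosomal protein, had the largest loss in CPM among called genes with a symbol, with 3143 and 2968 CPM at 6 h, against 11933 and 13503 CPM at 0 h (log2 fold change -2.06 ± 0.250, adjusted p = 0.00108). cpc2, the RACK1 scaffold on the small subunit, had 5644 and 5298 CPM at 6 h, against 13721 and 12759.7 CPM at 0 h (log2 fold change -1.27 ± 0.293, adjusted p = 0.0139). rpl3602 was the single member with both 6 h libraries above both 0 h libraries, with 23.2 and 23.7 CPM at 6 h, against 16.9 and 15.4 CPM at 0 h, and did not pass (adjusted p = 0.274). Many of these proteins have a pair of near-identical genes, between which reads may be shared. Calls were lost, with 1 library left out, for rpp203 (6 h replicate 2, 0.0542), rps20 (6 h replicate 2, 0.0633), rpp0 (6 h replicate 2 or 0 h replicate 1, up to 0.12), rps23 (6 h replicate 2 or 0 h replicate 1, up to 0.0879), rpl2802 (6 h replicate 2, 0.063) and cpc2 (any of the 4, 0.0514 to 0.092), whereas rpl22 and ubi3 kept the call in all 4 fits. The 116 falls came to 79 without 6 h replicate 1, 10 without 6 h replicate 2, 30 without 0 h replicate 1 and 66 without 0 h replicate 2. With library size scaling alone 73 fell and 1 rose, at a median of -0.70. The 33 mitochondrial ribosomal proteins tested had no call, log2 fold changes between -0.47 and 0.61 and a median of -0.01 (0.49 by library size alone, with 9 rises).

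Factors that build ribosomes fell too. Of 91 ribosome biogenesis factors tested of 103 listed, 37 fell (40.7%, beside 8.9% over all genes) and none rose. The median was -0.98, and all 91 log2 fold changes were below 0. With the experiment as a block 73 fell. gar2, a nucleolar protein of rRNA processing, had 248 and 264 CPM at 6 h, against 1368 and 1203 CPM at 0 h (log2 fold change -2.33 ± 0.296, adjusted p = 0.00125). dbp3, an RNA helicase of rRNA processing, had 111 and 83.0 CPM at 6 h, against 387 and 371 CPM at 0 h (log2 fold change -1.97 ± 0.403, adjusted p = 0.00906), and nip7, of large subunit assembly, had 111 and 107 CPM at 6 h, against 328 and 388 CPM at 0 h (log2 fold change -1.72 ± 0.426, adjusted p = 0.0183). dbp2, an RNA helicase outside the list, had 259.8 and 122 CPM at 6 h, against 1169.8 and 819 CPM at 0 h (log2 fold change -2.38 ± 0.494, adjusted p = 0.00949). Of 20 RNA polymerase I and III subunits tested of 25 listed, 3 fell (15%, beside 8.9% over all genes) and none rose (median -0.67). These polymerases make rRNA and tRNA. Under the block 9 subunits fell. The 3 were rpc19, with 117 and 102 CPM at 6 h, against 243 and 252 CPM at 0 h (log2 fold change -1.18 ± 0.268, adjusted p = 0.0133), rpa49, with 97.3 and 86.3 CPM at 6 h, against 217 and 192 CPM at 0 h (log2 fold change -1.16 ± 0.248, adjusted p = 0.0109), and rpc40, with 162 and 168 CPM at 6 h, against 305 and 390.1 CPM at 0 h (log2 fold change -1.07 ± 0.319, adjusted p = 0.0373). Omission of single libraries ended the call of dbp3 (6 h replicate 2, 0.0784), nip7 (any of the 4, 0.0621 to 0.104), dbp2 (6 h replicate 2 or 0 h replicate 1, up to 0.0842), rpc19 (6 h replicate 2 or 0 h replicate 1 or 2, up to 0.0943), rpa49 (6 h replicate 2 or 0 h replicate 1, up to 0.0855) and rpc40 (any of the 4, 0.0778 to 0.171), whereas gar2 kept the call in all 4 fits. The 37 falls among biogenesis factors came to 9 without 6 h replicate 1, 1 without 6 h replicate 2, 4 without 0 h replicate 1 and 7 without 0 h replicate 2, and the 3 among polymerase subunits to 2 without 6 h replicate 1, 0 without 6 h replicate 2, 0 without 0 h replicate 1 and 1 without 0 h replicate 2. Scaled by library size alone, 6 biogenesis factors (median -0.48) and no polymerase subunit (median -0.16) fell.

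Translation factors fell in part. Of 7 elongation factor genes, 3 fell (42.9%, beside 8.9% over all genes) and none rose (median -0.93), and 5 fell under the block. tef5, a subunit of the exchange factor that recharges EF-1 alpha, had 2559 and 2285 CPM at 6 h, against 7000.2 and 7289 CPM at 0 h (log2 fold change -1.56 ± 0.322, adjusted p = 0.00939). tef3, the fungal elongation factor that acts at the exit site, had 3057 and 2170.2 CPM at 6 h, against 6030.1 and 4361 CPM at 0 h (log2 fold change -0.99 ± 0.310, adjusted p = 0.0457). Of 21 initiation factor genes tested of 25 listed, 4 fell (19.05%, beside 8.9% over all genes) and none rose (median -0.58). Under the block 11 initiation factor genes fell. sce3, a homologue of eIF4B, had 806 and 540.4 CPM at 6 h, against 1621 and 1194 CPM at 0 h (log2 fold change -1.06 ± 0.275, adjusted p = 0.0213), and tif45, the cap-binding factor eIF4E, had 463 and 375 CPM at 6 h, against 791 and 708 CPM at 0 h (log2 fold change -0.84 ± 0.229, adjusted p = 0.0271). Among 14 aminoacyl-tRNA ligases 2 fell (14.3%, beside 8.9% over all genes) and none rose (median -0.51). They were yrs1 for tyrosine, with 306 and 294 CPM at 6 h, against 588 and 450.0 CPM at 0 h (log2 fold change -0.79 ± 0.219, adjusted p = 0.0286), and krs1 for lysine, with 302 and 314 CPM at 6 h, against 592 and 459 CPM at 0 h (log2 fold change -0.77 ± 0.224, adjusted p = 0.0343). With single libraries left out, calls were lost for tef5 (6 h replicate 2, 0.0685), tef3 (any of the 4, 0.0699 to 0.265), sce3 (6 h replicate 2 or 0 h replicate 1, up to 0.198), tif45 (any of the 4, 0.058 to 0.188), yrs1 (6 h replicate 1 or 2 or 0 h replicate 1, up to 0.173) and krs1 (any of the 4, 0.0544 to 0.19). On the library size scale, 1 elongation factor gene, tef5, fell (median -0.43), no initiation factor fell and 2 rose (median -0.08), and no ligase passed. The 3 falls of elongation factors came to 2 without 6 h replicate 1, 0 without 6 h replicate 2, 1 without 0 h replicate 1 and 2 without 0 h replicate 2, the 4 of initiation factors to 1 without 6 h replicate 1, 0 without 6 h replicate 2, 0 without 0 h replicate 1 and 1 without 0 h replicate 2 and the 2 of ligases to 0 without 6 h replicate 1, 0 without 6 h replicate 2, 0 without 0 h replicate 1 and 1 without 0 h replicate 2.

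The largest falls among named coding genes included 3 annotated phosphoribosyltransferases, urg2, uck2 and apt1. urg2, a predicted uracil phosphoribosyltransferase, had 158 and 241 CPM at 6 h, against 2072 and 888 CPM at 0 h (log2 fold change -2.89 ± 0.859, adjusted p = 0.0373), and urg3, a DUF1688 family protein encoded next to it, had 182 and 178 CPM at 6 h, against 1039 and 477 CPM at 0 h (log2 fold change -2.07 ± 0.595, adjusted p = 0.0331). uck2, annotated as a uracil phosphoribosyltransferase too, had 38.9 and 32.3 CPM at 6 h, against 277 and 153 CPM at 0 h (log2 fold change -2.59 ± 0.616, adjusted p = 0.0157). apt1, adenine phosphoribosyltransferase, had 247 and 174 CPM at 6 h, against 1099.6 and 1024 CPM at 0 h (log2 fold change -2.34 ± 0.363, adjusted p = 0.00319). All 4 were lower in both 6 h libraries than in both 0 h libraries, as was every called fall. The 0 h replicates of urg2 and urg3 differed by more than those at 6 h. Of 13 transporters of nitrogen sources and amino acids tested of 15 listed, 3 fell (23.1%, beside 8.9% over all genes), 1 rose and 9 did not pass, at a median of -0.42 (0.10 by library size alone). ptr2, a peptide transporter, had 40.8 and 22.9 CPM at 6 h, against 173 and 90.1 CPM at 0 h (log2 fold change -2.05 ± 0.397, adjusted p = 0.00719). amt1, an ammonium transporter, had 27.0 and 22.7 CPM at 6 h, against 78.0 and 79.1 CPM at 0 h (log2 fold change -1.66 ± 0.415, adjusted p = 0.0189), and put4, a proline permease, had 15.9 and 13.4 CPM at 6 h, against 68.2 and 31.4 CPM at 0 h (log2 fold change -1.76 ± 0.473, adjusted p = 0.0252). meu22, a predicted amino acid transporter, was the one that rose, with 6.78 and 2.72 CPM at 6 h, against 1.20 and 0.883 CPM at 0 h (log2 fold change 2.20 ± 0.658, adjusted p = 0.0379). ppk1, a predicted protein kinase, had 3.12 and 2.72 CPM at 6 h, against 19.3 and 12.4 CPM at 0 h (log2 fold change -2.43 ± 0.412, adjusted p = 0.00421), and fta5, a cell surface glycoprotein, had 4.91 and 3.98 CPM at 6 h, against 18.0 and 21.7 CPM at 0 h (log2 fold change -2.16 ± 0.434, adjusted p = 0.00834). efm6, a predicted methyltransferase, had 12.1 and 25.5 CPM at 6 h, against 72.1 and 98.8 CPM at 0 h (log2 fold change -2.18 ± 0.558, adjusted p = 0.0205). Calls were lost on omission of 1 library for urg2 (any of the 4, 0.0566 to 0.172), urg3 (6 h replicate 1 or 2 or 0 h replicate 1, up to 0.193), uck2 (6 h replicate 1 or 2 or 0 h replicate 1, up to 0.117), ptr2 (6 h replicate 2 or 0 h replicate 1, up to 0.0746), amt1 (any of the 4, 0.07 to 0.129), put4 (6 h replicate 1 or 2 or 0 h replicate 1, up to 0.184), meu22 (6 h replicate 1 or 0 h replicate 1 or 2, up to 0.224), fta5 (6 h replicate 2, 0.0681) and efm6 (any of the 4, 0.0526 to 0.127), whereas apt1 and ppk1 kept the call in all 4 fits. The 3 falls among transporters came to 1 without 6 h replicate 1, 0 without 6 h replicate 2, 0 without 0 h replicate 1 and 2 without 0 h replicate 2.

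Of 25 G1/S genes, 6 fell (24%, beside 8.9% over all genes) and 1 rose, with a median of -0.18, whereas scaling by library size alone gave no fall and 4 rises (median 0.33). dut1, the dUTPase that keeps uracil out of DNA, had 85.9 and 96.4 CPM at 6 h, against 246 and 197 CPM at 0 h (log2 fold change -1.28 ± 0.316, adjusted p = 0.0179), mcm3, of the replicative helicase, had 38.3 and 41.2 CPM at 6 h, against 70.5 and 83.7 CPM at 0 h (log2 fold change -0.96 ± 0.217, adjusted p = 0.0132), and mik1, a kinase that restrains mitosis, had 1.79 and 3.84 CPM at 6 h, against 8.13 and 6.62 CPM at 0 h (log2 fold change -1.36 ± 0.409, adjusted p = 0.0387). Of 29 genes of mitosis and cell division 2 fell (6.90%, beside 8.9%) and none rose (median -0.13, or 0.38 by library size alone). slp1, an activator of the anaphase-promoting complex, had 15.4 and 22.2 CPM at 6 h, against 74.5 and 52.3 CPM at 0 h (log2 fold change -1.75 ± 0.356, adjusted p = 0.00889), and cdc13, the mitotic cyclin, had 127 and 153 CPM at 6 h, against 252 and 188 CPM at 0 h (log2 fold change -0.65 ± 0.195, adjusted p = 0.0373). The 11 histone genes and the 8 chaperonin CCT genes had no call, nor did the 8 hexose transporters. Of the hexose transporters, ght5 had 870.3 and 1242 CPM at 6 h, against 1234 and 196 CPM at 0 h, with the 0 h replicates far apart and the 2 times overlapping. Of 35 proteasome genes tested of 46 listed 1 fell (2.86%, beside 8.9% over all genes) and none rose, at a median of 0.18. It was rpt2, an ATPase of the regulatory particle, with 1617 and 1401 CPM at 6 h, against 3274 and 2798 CPM at 0 h (log2 fold change -1.01 ± 0.248, adjusted p = 0.0178). On the library size scale rpt2 no longer passed (adjusted p = 0.0915) and 14 proteasome genes rose. Of 14 iron acquisition genes tested of 15 listed, 2 rose (14.3%) and 1 fell (7.14%), beside 8.57% and 8.9% over all genes. Under the block 4 rose. sib2, a siderophore biosynthesis enzyme, had 83.0 and 83.5 CPM at 6 h, against 32.9 and 21.5 CPM at 0 h (log2 fold change 1.62 ± 0.393, adjusted p = 0.0169), and fep1, the repressor of iron uptake genes, had 39.3 and 47.0 CPM at 6 h, against 68.6 and 76.5 CPM at 0 h (log2 fold change -0.75 ± 0.222, adjusted p = 0.0367). Of 11 zinc and phosphate genes 1 fell (9.09%, beside 8.9% over all genes) and none rose. This was the acid phosphatase gene pho4, which thiamine represses, with 62.8 and 67.0 CPM at 6 h, against 155 and 147 CPM at 0 h (log2 fold change -1.22 ± 0.274, adjusted p = 0.0129). Without 1 library, calls were lost for dut1 (6 h replicate 1 or 2 or 0 h replicate 1, up to 0.1), mcm3 (6 h replicate 1 or 2 or 0 h replicate 2, up to 0.0782), mik1 (6 h replicate 1 or 0 h replicate 1 or 2, up to 0.199), slp1 (6 h replicate 1 or 0 h replicate 1, up to 0.0625), cdc13 (6 h replicate 1 or 2 or 0 h replicate 1, up to 0.236), rpt2 (any of the 4, 0.0511 to 0.123), sib2 (any of the 4, 0.0564 to 0.12), fep1 (any of the 4, 0.0911 to 0.175) and pho4 (6 h replicate 1 or 2 or 0 h replicate 1, up to 0.0758). By library size alone cdc13, fep1 and pho4 did not pass either (adjusted p = 0.613, 0.527 and 0.0556). The 6 G1/S falls came to 0 without 6 h replicate 1, 1 without 6 h replicate 2, 1 without 0 h replicate 1 and 2 without 0 h replicate 2.

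Non-coding RNAs were measured in the same libraries, which were made from poly(A) RNA and counted by strand. Of 1079 tested of 1535 in the table, 51 rose and 92 fell, at a median of -0.18, and the share called was 13.3%, against 18.3% among 5007 coding genes tested. Antisense RNAs made up 632 of those tested, with 35 rises and 51 falls. Of 29 snRNAs and snoRNAs, 9 fell (31.0%, beside 8.9% over all genes) and none rose, and of 24 rRNA entries 6 fell (25%) and none rose. Selection of poly(A) RNA leaves few rRNA reads. All rRNA entries took 0.0152% and 0.00494% of raw counts at 6 h, against 0.0182% and 0.00481% at 0 h. These shares were further apart between replicates than between times. Non-coding RNAs took 0.391% and 0.387% at 6 h, against 0.298% and 0.313% at 0 h, of all raw counts. This share is not TMM-scaled, unlike the calls and the median above. By library size alone, the median log2 fold change of all genes was 0.50. Calls of non-coding RNAs on that scale were not counted.

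The polysome change of WT cells was set against the total mRNA change of the same cells, since an mRNA can be more abundant on polysomes only because the cell holds more of it. Of the 529 rises, 527 also had a total mRNA log2 fold change above 0, with a median of 1.17, and 293 passed there too. Of the 549 falls, 532 were below 0 in total mRNA, with a median of -1.02, and 304 passed. Over all 6170 genes, 370 rose and 371 fell in total mRNA. The 529 and 549 genes were picked by their polysome change, so smaller medians in total mRNA can come from that choice alone. The test of the difference between both changes called 1 of 6170 genes (0.0162%), with 156 genes at an unadjusted p under 0.05 and 6 called by DESeq2. It was meu26-antisense-1 (SPNCRNA.827), an antisense RNA that the annotation also lists as a possible alternative UTR. On polysomes it had 3.75 and 4.95 CPM at 6 h, against 18.1 and 15.6 CPM at 0 h (log2 fold change -1.95 ± 0.318, adjusted p = 0.00377). In total mRNA it had 2.41 and 2.76 CPM at 6 h, against 1.07 and 0.767 CPM at 0 h (log2 fold change 1.50 ± 0.341, adjusted p = 0.0195). It thus moved in opposite directions in both fractions, and the difference was -3.44 ± 0.465 (adjusted p = 0.049). This call was lost with any 1 of the 8 WT libraries left out, with the experiment as a block and with library size scaling. DESeq2 called it too, with an adjusted p of 5.46e-08.

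Some named genes had unlike values in polysomes and total mRNA, without a difference past the test. gar2 had 651 and 649.7 CPM at 6 h, against 719 and 830.1 CPM at 0 h in total mRNA, a log2 fold change of -0.25, beside -2.33 on polysomes (difference -2.08 ± 0.403, adjusted p = 0.48). DESeq2 called this difference, and those of SPBC1711.15c, rps2802, SPAC19B12.01-antisense-1 and rng9-antisense-1. SPBC1711.15c, a protein found in this species only, had 2.32 and 1.54 CPM at 6 h, against 20.8 and 19.8 CPM at 0 h on polysomes (log2 fold change -3.40), and -0.71 in total mRNA. rps2802, a small subunit protein gene, had 1448 and 1256 CPM at 6 h, against 1521 and 1611 CPM at 0 h on polysomes, with a log2 fold change of -0.21 (0.29 by library size alone), and -1.37 in total mRNA (difference 1.15 ± 0.280). It was one of the 22 ribosomal protein genes that did not pass on polysomes, and its total mRNA fell (adjusted p = 0.0035). atg2 had 36.9 and 34.3 CPM at 6 h, against 36.4 and 27.9 CPM at 0 h in total mRNA, where its log2 fold change was 0.15, and 1.36 on polysomes (difference 1.21 ± 0.331, adjusted p = 1). hsp3101 had 2.75 in total mRNA and 4.89 on polysomes, and hsp9 had 3.09 and 4.95. List medians were -1.20 on polysomes and -1.11 in total mRNA for cytosolic ribosomal proteins, 1.86 and 1.32 for core stress response genes, and 0.84 and 0.65 for autophagy genes. They were less alike for the 5 M-cell genes, at -0.03 on polysomes and 1.38 in total mRNA. For the 8 hexose transporters they were 0.17 and 0.64. No gene of these 2 lists passed the test of the difference.

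**Figure D4:**
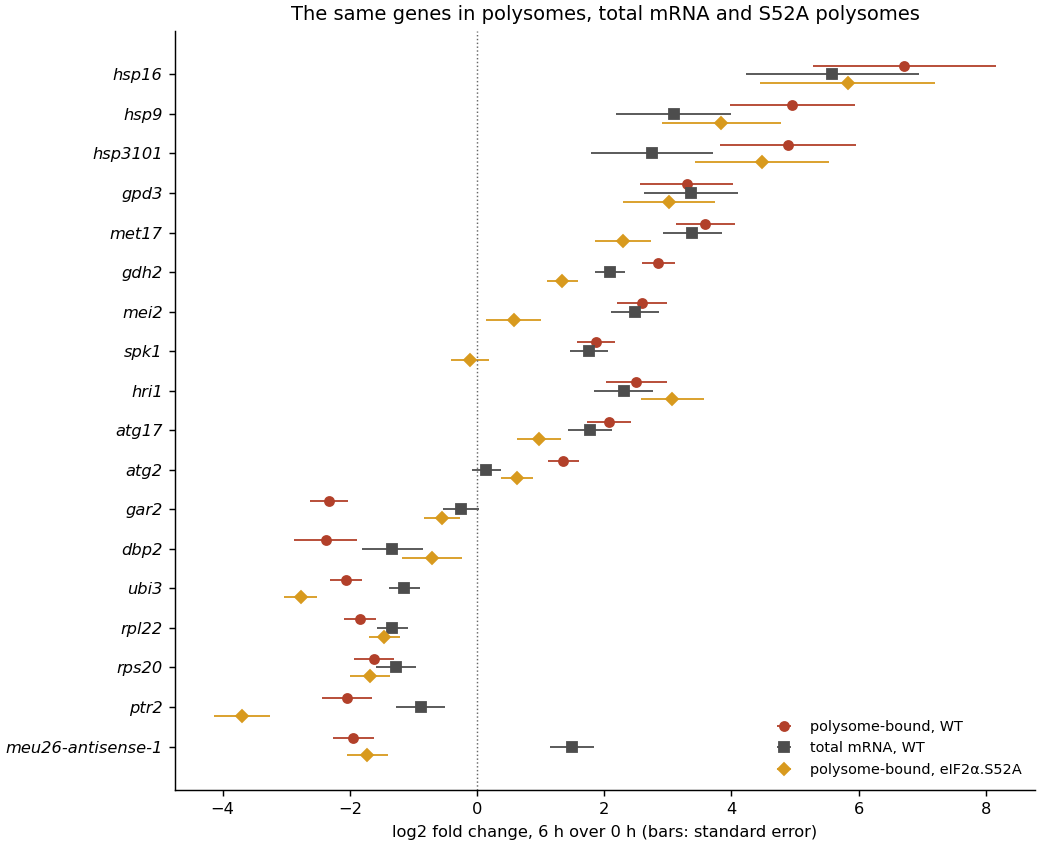
Log2 fold change, 6 h over 0 h, of 18 genes in WT polysomes (red circles), WT total mRNA (grey squares) and eIF2α.S52A polysomes (yellow diamonds), with standard errors as bars. For meu26-antisense-1 the total mRNA value lies above 0 and both polysome values below it, and for gar2 the WT polysome value (-2.33) lies below -0.25 in total mRNA and -0.56 in S52A polysomes.

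The same change in the S52A strain, in which this site of eIF2α cannot be phosphorylated, was the second comparison. Of the 529 WT rises 508 had a log2 fold change above 0 in S52A polysomes (median 0.93), and of the 549 WT falls 530 were below 0 (median -0.76). These genes were picked by their WT change, so smaller medians in S52A can come from that choice alone. The share with the same sign in both strains over all genes was not worked out. S52A polysomes had 210 rises and 221 falls of their own. The test of the strain difference, WT change minus S52A change, called no gene of 6170 (0%) by edgeR, with 345 genes at an unadjusted p under 0.05, and 23 by DESeq2, of which 17 were higher in WT. gdh2 was among those 23, with 2.85 in WT and 1.34 in S52A polysomes (difference 1.51 ± 0.349, edgeR adjusted p = 0.428). spk1 had 1.87 in WT and -0.11 in S52A polysomes (difference 1.98 ± 0.421, adjusted p = 0.369). gar2 had -2.33 in WT and -0.56 in S52A polysomes, where it had 684 and 1092 CPM at 6 h, against 1323 and 1288 CPM at 0 h (difference -1.77 ± 0.402, adjusted p = 0.428). rpp202, a stalk protein gene, had -0.38 (0.11 by library size alone) in WT and -2.31 in S52A polysomes (difference 1.93 ± 0.343, adjusted p = 0.369). mei2, outside the 23, had 2.59 in WT and 0.58 in S52A polysomes (adjusted p = 0.655). For ribosome biogenesis factors the median was -0.98 in WT and -0.38 in S52A polysomes, and for heat shock proteins and chaperones it was 0.45 in WT and 1.15 in S52A polysomes. The S52A replicates stood apart in both lists. By experiment, the S52A median of biogenesis factors was -0.71 between the replicate 1 libraries and -0.04 between the replicate 2 libraries, and that of heat shock proteins was 1.95 and 0.17 in the same order. hsp16 had 15373 and 778 CPM at 6 h, against 100.5 and 184 CPM at 0 h in S52A polysomes. These differences between strains in the list medians were not tested.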

How the data were processed

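Total mRNA and polysome fractions of WT and eIF2α.S52A cells were sequenced as stranded paired-end libraries from poly(A) RNA. The authors checked reads with FastQC, aligned them with STAR to ASM294v2, indexed alignments with SAMtools and counted read pairs per gene and strand with QoRTs. The versions of these tools were not given in the sources used here. As deposited, raw counts are integers per gene, which the authors did not normalize. The values normalized by DESeq2 and the authors' own fold changes and p-values were not used.

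Genes were kept by filterByExpr in edgeR 4.0.16 (R 4.3.3), which left 6170 of 7014, scaled by TMM and tested with the quasi-likelihood test in 1 model of 8 groups (16 libraries, 8 residual degrees of freedom). A call is a Benjamini-Hochberg adjusted p under 0.05. Alternatives were the experiment as a block, library size scaling, size factors of DESeq2, DESeq2 1.42.0 itself, no filter, the 4 WT polysome libraries alone and each library left out. The script was tested on simulated counts. Same-numbered libraries are 1 experiment per the labels, and deviations from the group means of same-numbered WT polysome libraries correlated at r = 0.55 across genes, which are not independent replicates. Replicates were distinct libraries (r2 of log2 CPM 0.969 at 6 h and 0.967 at 0 h).

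Named are the 12 largest rises and falls among called coding genes with a symbol, a mean of at least 4 CPM and 1 direction in both replicates, the 6 rises and 6 falls largest in CPM, up to 4 called members of each list, up to 5 genes each way from each difference test, and tif211, hri1, hri2, gcn2 and fil1. Of these, rpl702, rlp24, tif213, eft202, gst2, dld1, fum1, atg14, tos4 and str2 are counted with their lists only, and 1 gene is not reported here. These genes, and others chosen after their values were seen (the SPBPB2B2 genes, ssa1, hsp104, tps1, sks2, eno101, tdh1, mdh1, atg1, atf1, sod1, isp6, ste11, ght5, rpl3602, rps2802, rpp202 and those DESeq2 called), and the 35 gene lists were picked with earlier results of these data known. Of the identifiers, 6846 matched RefSeq's annotation of ASM294v3, used only for symbols and gene order. No sequence was read from that assembly. Symbols such as hry1, sul2, uck2 and efm6 come from it. Counts of near-identical gene copies may be shared or lost. Intervals cover counting error only, since reads carry no molecular identifiers.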

Additional observations from a re-analysis of the deposited data

Results flagged for a closer look

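One result stood out by a test of the difference between fractions. The change of meu26-antisense-1 in WT cells differed between polysomes and total mRNA by -3.44 on the log2 scale, lower on polysomes. The level in both total mRNA libraries at 6 h was 2.41 and 2.76 CPM, against 1.07 and 0.767 CPM at 0 h, so this side of the difference rests on few reads. Groups of 2 replicates are too small for a search for outlying libraries.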

How the results depend on the processing

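Each group held 2 experiments, and how depth limits the number of calls was not tested. In the WT polysome change, 1078 genes were called (529 higher, 549 lower). The experiment as a block gave 1691 (834 and 857), including all 1078, and among the 128 named genes it added 7 calls (gcn2, hsp104, tps1, ste11, mdh1, sod1 and isp6) and changed no other. Library size scaling gave 2053 (1840 and 213), of which 742 were shared, ended the call of 19 named genes and added 8, and the median over all genes moved by 0.50. DESeq2 gave 1478 calls (675 and 803). With 1 of the 4 libraries left out, 245 to 525 genes were called, 127 to 274 higher and 63 to 251 lower. A lone replicate is then assumed to vary like the other groups. Without the filter 1049 genes were called, with size factors in edgeR 1087, and with the 4 WT polysome libraries alone 920, which ended 14 named calls and added 5. 

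For the difference from total mRNA, 1 gene was called, 0 with the block, 0 with library size scaling, 6 with DESeq2 and 0 with any library left out. For the strain difference, 0 genes were called in edgeR, 23 by DESeq2 and 0 with any library left out. Total mRNA of WT cells gave 741 calls, 1374 with the block, 1255 with DESeq2 and 16 to 172 with a library left out. S52A polysomes gave 431 calls, 845 with the block, 1969 with library size scaling, 869 with DESeq2 and 37 to 861 with a library left out. Among the named genes, no called one changed sign. On the library size scale, tdh1 was 0.41, rps2802 0.29 and rpp202 0.11. With 1 library left out, hri2 ranged over -0.25 to 0.56, tdh1 -0.61 to 0.27 and ght5 -0.23 to 2.43. The causes of these changes were not tested.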
